A study of Mus musculus with 9 samples.

Results

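The genes Ubb, Sqstm1, Vcp, Zfand2a, Zfand5, Nfe2l1, Ddi2, Ubqln1 and Ubqln2 supply ubiquitin or handle ubiquitin-tagged and misfolded protein. These 9 genes were chosen by symbol out of the 16509 in the expression table, and all 9 passed the filter on low counts that kept 11949 genes. Messenger RNA was read from MC38, a mouse colon carcinoma line, in 3 libraries each of Ctrl, Cu-Cys and Cadict cells. Ctrl cells carry the treatment label DMSO, although the paper names PBS. Cu-Cys is read here as the assembly of copper and cystine, and Cadict is a nanoparticle that joins copper and cystine with glucose oxidase (GOx) and the EGFR-binding peptide GE11. No dose or time was given for these libraries, and the effects of GOx, of GE11 and of the particle itself cannot be told apart. The paper states, for its in vitro work as a whole, that experiments were independently repeated and that legends count biological replicates. Separate cultures are not named for these libraries in particular, so the p-values measure the spread between these libraries, which may be technical.

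Ubiquitin is a small protein that cells attach to other proteins, in chains that send them to the proteasome or to autophagy. Ubb is a polyubiquitin gene, whose repeated units are cut apart after translation, and Rps27a encodes ubiquitin fused to a ribosomal protein. Chain-bearing proteins are pulled out of membranes and complexes by the ATPase Vcp with its cofactors Ufd1 and Nploc4, ferried to the proteasome by ubiquilins, or gathered for autophagy by Sqstm1 (p62). Nfe2l1 is a membrane-bound transcription factor that Vcp extracts and the protease Ddi2 cleaves before it can act on proteasome genes, and Zfand2a and Zfand5 are zinc finger proteins that bind the proteasome or Vcp.

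The 9 libraries held 17905771 to 18293056 counts each. Levels between libraries are given as TMM CPM, the count relative to the library total after TMM scaling, for which the factors were 1.262 to 1.274 in Ctrl, 1.206 to 1.209 in Cu-Cys and 0.6395 to 0.6654 in Cadict libraries. With TMM the median log2 fold change of all genes in Cadict against Ctrl was -0.13, and with library totals alone it was -1.08, so every Cadict change below is relative to the scaling. RNA per cell was not measured, and fewer cells and less RNA per cell cannot be told apart. Among markers of colon epithelium, Epcam was at 0 in every Ctrl and Cu-Cys library and reached at most 0.34 TMM CPM in Cadict. Of the 9 epithelial markers 7 had a row and 2, Cdh1 and Krt19, passed the filter. The summed level of the markers ran from 5.32 to 6.83 TMM CPM in Ctrl, 3.97 to 4.38 in Cu-Cys and 24.1 to 26.2 in Cadict. Cdh1 ran from 4.29 to 5.19 in Ctrl and 12.6 to 12.9 in Cadict. Krt19 ran from 0.828 to 1.43 in Ctrl and 9.99 to 11.4 in Cadict. All 3 mesenchymal markers were tested, and their summed level was 2510 to 2540 TMM CPM in Ctrl, 2530 to 2600 in Cu-Cys and 3040 to 3260 in Cadict. Within it Vim ran from 2030 to 2070 in Ctrl and 1860 to 2230 in Cadict, and Fn1 from 400 to 432 in Ctrl and 871 to 1110 in Cadict. Of 10 markers of leukocytes, endothelium and stroma, 8 had a row and 4 were tested, and their sum was 79.5 to 83.1 TMM CPM in Ctrl, 57.1 to 63.1 in Cu-Cys and 64.3 to 73.3 in Cadict. Within that sum the macrophage marker Cd68 went from 2.96 to 3.11 in Ctrl to between 15.4 and 18 in Cadict, and the fibroblast marker Pdgfra from 34.9 to 42.1 in Ctrl to between 5.04 and 7.65 in Cadict, while the leukocyte marker Ptprc did not exceed 0.252 in any library. Whether these markers have a part in the results below was not tested.

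In Cadict cells, 6 of the 9 genes were called higher than in Ctrl cells and 0 were called lower, beside 20.7% and 27.1% of all genes tested. Zfand2a rose 40.2-fold, Sqstm1 28.1-fold, Ubb 10.4-fold, Ubqln1 7.39-fold, Zfand5 6.52-fold and Vcp 3.53-fold. Ddi2, Nfe2l1 and Ubqln2 did not reach 2-fold in either direction. In Cu-Cys cells none of the 9 was called, beside 0.167% of all genes called higher and 1.47% lower, although Zfand2a, Sqstm1, Zfand5, Vcp and Ubqln1 were higher than in Ctrl at an adjusted p of at most 0.05. Calls were made by edgeR's quasi-likelihood test over all genes, with thresholds of 2-fold and of 0.001 for the adjusted p.

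**Figure D1:**
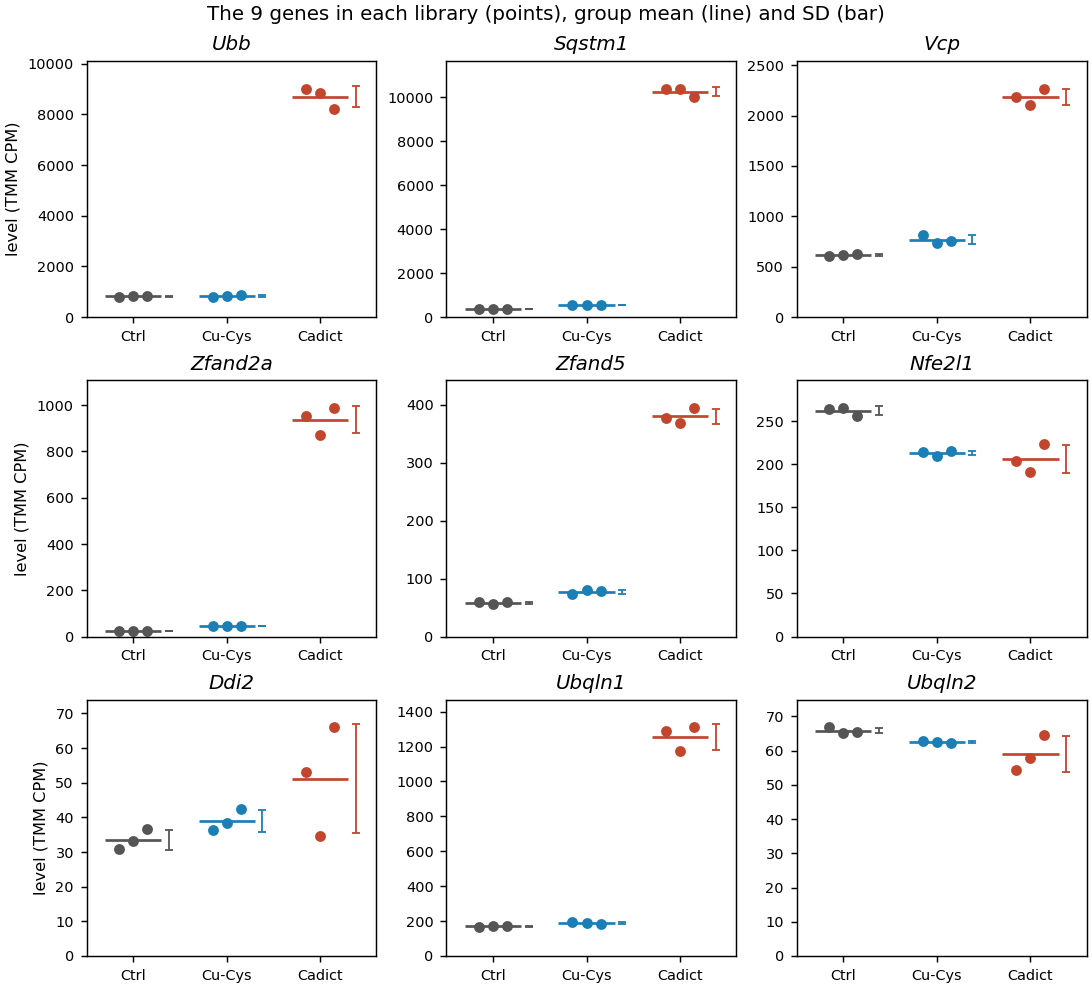
Level of each of the 9 genes in TMM CPM (vertical axis, linear, starting at 0, different in each panel) in Ctrl, Cu-Cys and Cadict libraries (points), with the group mean (line) and SD (bar beside it). The 3 Cadict points lie above all others for Ubb, Sqstm1, Vcp, Zfand2a, Zfand5 and Ubqln1, and the Ddi2 points of Cadict run from 34.6 to 66.0 TMM CPM.

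Ubb rose with Cadict and did not pass the test with Cu-Cys. It read 809, 843 and 843 TMM CPM in Ctrl libraries, 812, 852 and 890 in Cu-Cys libraries, and 9018, 8845 and 8215 in Cadict libraries. The Ctrl and Cu-Cys ranges overlapped and the Cadict libraries stood apart. On the log2 scale Cadict differed from Ctrl by 3.39 ± 0.06 (SE, n = 3 libraries per group), with an adjusted p of 1.7e-16 from edgeR. The change with Cu-Cys was 0.03 ± 0.05, with an adjusted p of 0.63 from edgeR and a 95% interval of -0.08 to 0.15.

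Rps27a, which encodes ubiquitin joined to a ribosomal protein, changed by 1.38 ± 0.12 (SE) in Cadict against Ctrl. With library totals alone its change was 0.42, which is under 2-fold, where that of Ubb was 2.43.

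Ubb lies at chr11:62551171-62553213 (GRCm38, plus strand). In GENCODE M21 transcripts its coding sequence is 915 bases long and holds 4 units of 228 bases, each of which encodes ubiquitin. Neighbouring units were 96.7% identical by base. Of the 50-base stretches of Ubb transcripts, 48.1% also occur in another annotated gene, and 48% occur in Gm1821, which was not analysed here. The split of such reads was made by the authors' counting, so the level of Ubb is uncertain to that extent.

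Sqstm1, the autophagy receptor p62, had the second largest change. Its levels were 355, 371 and 370 TMM CPM in Ctrl, 548, 536 and 558 in Cu-Cys, and 10356, 10391 and 10007 in Cadict. No library of one group overlapped another group. Against Ctrl the log2 change was 4.81 ± 0.05 with Cadict (adjusted p = 5.8e-18, edgeR) and 0.58 ± 0.05 with Cu-Cys (adjusted p = 2.5e-07, edgeR). With 0.67% of all counts in Cadict libraries against 0.0462% in Ctrl, Sqstm1 drew more counts than any other of the 9 genes in Cadict cells. Nbr1, a related autophagy receptor, changed by 0.70 ± 0.07 with TMM and by -0.25 with library totals. Counts of Sqstm1 per count of Nbr1, a ratio that library scaling does not alter, were 3.04 ± 0.08 (SD) in Ctrl, 4.91 ± 0.20 in Cu-Cys and 53.1 ± 8.1 in Cadict, with no overlap between groups. Each pair of groups gave an exact two-sided permutation p of 0.1, the smallest that 3 libraries against 3 allow. Of the 10 autophagy receptors and their regulators tested, 2 were called higher and 2 lower, or 1 and 5 with library totals, and Sqstm1 is one of those called higher. The shares of all genes tested were 20.7% higher and 27.1% lower with TMM, and 6.93% higher and 51.5% lower with library totals. The share called higher was thus near that of all genes. Here and below the largest rise or fall of a list is taken among genes with a mean of at least 10 TMM CPM. The largest fall here was that of Keap1, the adaptor that holds Nfe2l2 for degradation, at -1.32 ± 0.08. Sqstm1 lies at chr11:50199366-50210827 (GRCm38, minus strand) and overlaps Mrnip on the other strand. Mrnip had 136 to 168 counts in Ctrl and 10 to 29 in Cadict libraries, and the counting is not stated to use strand, so reads of the overlap cannot be told apart.

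Vcp, the unfolding ATPase, rose less than the genes above but from a high level. It stood at 609, 621 and 628 TMM CPM in Ctrl, 819, 736 and 754 in Cu-Cys, and 2183, 2109 and 2268 in Cadict. The 3 groups were separate. The log2 fold changes were 1.82 ± 0.05 in Cadict against Ctrl (adjusted p = 4.6e-14, edgeR) and 0.31 ± 0.05 in Cu-Cys against Ctrl (adjusted p = 2.2e-04, edgeR). With library totals alone the Cadict change was 0.87, which is under 2-fold and ends the call. Of Vcp's transcript stretches of 50 bases, 40.5% also occur in Vcp-rs, which was not analysed here.

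The cofactors of Vcp did not move as one group. Ufd1 changed by 1.90 ± 0.06 in Cadict against Ctrl (0.95 with library totals), while Nploc4, its partner in the same heterodimer, changed by 0.54 ± 0.06 with TMM and by -0.41 with library totals. Vcp counts per Ufd1 count were 14.4 ± 0.3 (SD) in Ctrl, 15.2 ± 0.3 in Cu-Cys and 13.6 ± 0.8 in Cadict. The Ctrl and Cadict ranges of that ratio overlapped (exact permutation p = 0.2, difference -0.08 on the log2 scale). Vcp counts per Nploc4 count were 5.02 ± 0.11 in Ctrl, 5.27 ± 0.07 in Cu-Cys and 12.2 ± 0.7 in Cadict, without overlap (exact permutation p = 0.1). Among 26 cofactors tested, 7 were called higher and 2 lower, beside 20.7% and 27.1% of all genes. The median log2 fold change of the cofactors was 0.66. With library totals 2 were called higher and 7 lower, beside 6.93% and 51.5% of all genes. The share of cofactors called higher was thus near that of all genes. The largest rise was that of Rhbdd1, a rhomboid protease of the endoplasmic reticulum, at 2.66 log2 units (1.70 with library totals), and the largest fall that of Ngly1, the enzyme that removes sugar chains from Nfe2l1, at -1.21 ± 0.10.

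Zfand2a, a zinc finger protein induced by arsenite and heat, showed the largest change of the 9 genes. It was read at 22.9, 24.1 and 23.0 TMM CPM in Ctrl, 44.4, 46.0 and 47.2 in Cu-Cys, and 955, 871 and 988 in Cadict. All 3 groups were separate, and the Cadict change ranked 87th among 11949 genes. It rose against Ctrl by 5.33 ± 0.07 on the log2 scale with Cadict (adjusted p = 1.1e-17, edgeR) and by 0.97 ± 0.06 with Cu-Cys (adjusted p = 4.5e-08, edgeR). The Cu-Cys fold of 1.97 fell just short of a call, and its rank there was 93rd. By FPKM, a level per length, Zfand2a was the lowest of the 9 genes in Ctrl cells at 10.7 ± 0.3 (SD) and stood at 221 ± 18 in Cadict cells, where its range overlapped that of Ubqln1 at 247 ± 19.

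Zfand5, a relative of Zfand2a that activates the proteasome, rose less. Its levels were 59.7, 56.3 and 59.1 TMM CPM in Ctrl, 73.2, 79.6 and 78.8 in Cu-Cys, and 378, 368 and 395 in Cadict, with no overlap. Its log2 change against Ctrl was 2.70 ± 0.05 with Cadict (adjusted p = 8.7e-16, edgeR) and 0.40 ± 0.05 with Cu-Cys (adjusted p = 3.4e-05, edgeR). Zfand2a counts were 0.400 ± 0.024 (SD) times those of Zfand5 in Ctrl, 0.595 ± 0.014 times in Cu-Cys and 2.46 ± 0.09 times in Cadict, so that the order of the 2 genes turned. Of the 7 genes of the Zfand family 5 were called higher and 2 lower, beside 20.7% and 27.1% of all genes. Zfand2b, the closest relative of Zfand2a, changed by 1.48 ± 0.12 and Zfand6 by 1.25 ± 0.06, or by 0.52 and 0.30 with library totals, while Zfand4 changed by -2.84 log2 units. With library totals 3 were called higher and 2 lower, beside 6.93% and 51.5% of all genes.

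Ubqln1 and Ubqln2, ubiquilins that carry ubiquitin-tagged proteins to the proteasome, parted. Ubqln1 was at 168, 170 and 172 TMM CPM in Ctrl, 194, 187 and 186 in Cu-Cys, and 1288, 1172 and 1310 in Cadict. Ubqln2 was at 66.8, 65.2 and 65.6 in Ctrl, 62.8, 62.4 and 62.2 in Cu-Cys, and 54.4, 58.0 and 64.6 in Cadict. For Ubqln1 the 3 groups did not overlap, and for Ubqln2 the Cadict values spread around those of Cu-Cys and stayed below Ctrl. The log2 fold change of Ubqln1 in Cadict against Ctrl was 2.89 ± 0.05 (adjusted p = 5e-16, edgeR), and that of Ubqln2 was -0.16 ± 0.06 (adjusted p = 0.023, edgeR). The value of Ubqln2 fell to -0.04 with DESeq2 size factors (adjusted p = 0.54) and was -1.11 with library totals, and its adjusted p was 0.063 without Ctrl replicate 1 and 0.13 without Cadict replicate 1. With Cu-Cys, Ubqln1 changed by 0.15 ± 0.05 against Ctrl (adjusted p = 0.027, edgeR), a call lost when any 1 of the 6 libraries was left out, where the adjusted p ran from 0.051 to 0.11.

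The ratio of the ubiquilins needs no scaling. Ubqln2 counts per Ubqln1 count were 0.398, 0.383 and 0.382 in Ctrl, 0.323, 0.334 and 0.335 in Cu-Cys, and 0.0422, 0.0495 and 0.0493 in Cadict. The 3 groups were separate, with exact permutation p = 0.1 for each pair, and the log2 difference between Cadict and Ctrl was -3.05. Ubqln4, another ubiquilin, was at 0.635 ± 0.021 (SD) counts per Ubqln1 count in Ctrl, 0.685 ± 0.034 in Cu-Cys and 0.0737 ± 0.0055 in Cadict. Transcripts of Ubqln1 (chr13:58176156-58215653, minus strand) and Ubqln2 (chrX:153498227-153501570, plus strand) share no 50-base stretch with any other annotated gene of GENCODE M21, and the longest run common to both has 35 bases. Among 7 shuttle factors tested, 2 were called higher and 0 lower, beside 20.7% and 27.1% of all genes. With library totals 1 was called higher and 2 lower, beside 6.93% and 51.5% of all genes. The 2 called higher with TMM were Ubqln1 and Rad23b, a carrier of another family, at 1.88 ± 0.05 (0.93 with library totals, under 2-fold).

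Nfe2l1, the transcription factor of proteasome genes, was lower with both treatments. It stood at 264, 265 and 256 TMM CPM in Ctrl, 214, 210 and 215 in Cu-Cys, and 204, 191 and 224 in Cadict. Both treated groups lay below Ctrl and overlapped each other. The log2 change was -0.30 ± 0.05 in Cu-Cys against Ctrl (adjusted p = 5e-04, edgeR) and -0.34 ± 0.06 in Cadict against Ctrl (adjusted p = 2.8e-05, edgeR), or -1.30 with library totals. Nfe2l2, its relative under the control of Keap1, changed by 1.19 ± 0.06 in Cadict against Ctrl, or by 0.24 with library totals. Counts of Nfe2l2 per count of Nfe2l1 were 0.200 ± 0.007 (SD) in Ctrl, 0.229 ± 0.012 in Cu-Cys and 0.580 ± 0.016 in Cadict, without overlap (exact permutation p = 0.1). Nfe2l3, a further relative, had 0 to 4 counts per library and was not tested. Among the 15 genes of CNC factors and Nfe2l1 processing tested, 5 were called higher and 1 lower, beside 20.7% and 27.1% of all genes. With library totals 2 were called higher and 6 lower, beside 6.93% and 51.5% of all genes. The largest rise was that of Maff, a small Maf protein that pairs with CNC factors, at 4.60 log2 units, and Syvn1, a ubiquitin ligase of the endoplasmic reticulum, changed by -0.31 ± 0.07.

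Ddi2, the protease that cleaves Nfe2l1, varied most between libraries. Its levels were 31.0, 33.1 and 36.6 TMM CPM in Ctrl, 36.2, 38.4 and 42.3 in Cu-Cys, and 53.0, 34.6 and 66.0 in Cadict. Cadict replicate 2 lay within the Ctrl range. With Cadict the log2 change was 0.61 ± 0.15 (adjusted p = 0.0016, edgeR), and it was 0.38 without Cadict replicate 3 and 0.83 without Cadict replicate 2. With library totals it was -0.34 (adjusted p = 0.055). The change with Cu-Cys was 0.22 ± 0.15 (adjusted p = 0.25, edgeR), with a 95% interval of -0.10 to 0.53, and it passed 0.05 with DESeq2's Wald test (adjusted p = 0.017) and in a fit of these 2 groups (adjusted p = 0.0078).

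Ddi2 (chr4:141677549-141723419, minus strand, GRCm38) contains the whole of Rsc1a1 (chr4:141683851-141685599) on the same strand, and 17.9% of the 50-base stretches of Ddi2 transcripts also occur in Rsc1a1. Expected counts of Rsc1a1 were 254, 212 and 156 in Ctrl, where those of Ddi2 were 716, 765 and 839. The Ctrl library with more counts for Ddi2 had fewer for Rsc1a1, and the sums were 970, 977 and 995. The coefficient of variation was 7.99% for Ddi2 and 1.32% for the sum in Ctrl, 8.47% and 1.27% in Cu-Cys, and 32.4% and 18.6% in Cadict. With both counted as 1 gene, an alternative chosen after these values were seen, the pair changed by 0.72 ± 0.09 on the log2 scale in Cadict against Ctrl (adjusted p = 1.3e-06, edgeR) and 0.30 ± 0.09 in Cu-Cys against Ctrl (adjusted p = 0.01, edgeR). The direction with Cadict rests on a scaling beyond library totals. The summed counts before scaling were 817, 672 and 977 in Cadict, a mean of 822 against 980.7 in Ctrl. The sum was fitted with TMM only. For Ddi2 alone the change was 0.73 with DESeq2 size factors, 0.66 with size-factor counts and -0.34 with library totals.

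**Figure D2:**
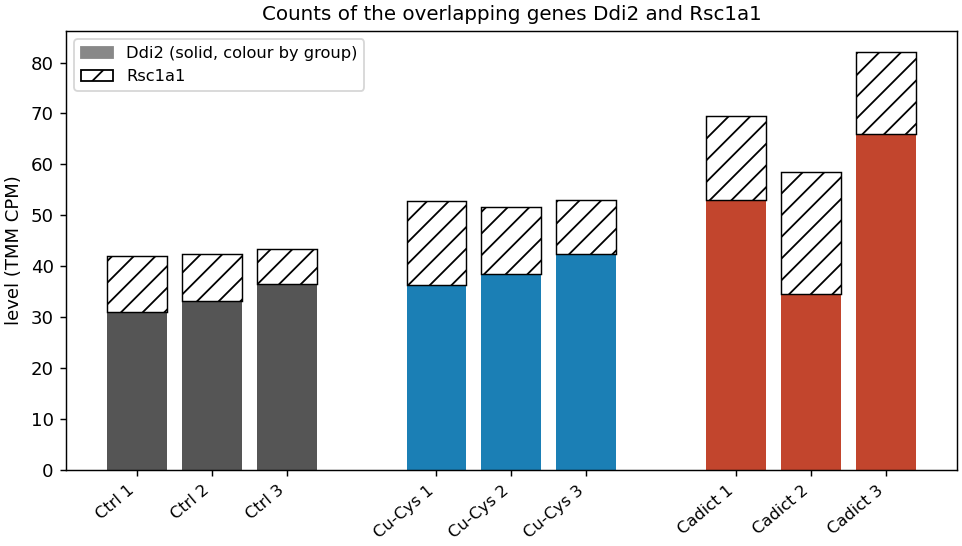
Levels of Ddi2 (solid) and of Rsc1a1 (hatched), stacked, in TMM CPM (vertical axis, starting at 0) in each of the 9 libraries (horizontal axis). Bar heights are nearly even within Ctrl (42.0 to 43.4) and within Cu-Cys (51.7 to 52.9) although the split inside the bars differs, and the Cadict bars run from 58.6 to 82.0.

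Beside all genes tested, the calls in Cadict against Ctrl read as follows. Of the 9 genes, 6 were called higher, where 20.7% of all genes were, and 0 were called lower, where 27.1% of all genes were. By the adjusted p alone, at 0.05, 7 were higher and 2 lower, where 40.6% of all genes were higher and 47.1% lower. Their median was 2.70 on the log2 scale, against -0.13 for all genes. With library totals alone, Ubb, Sqstm1, Zfand2a, Zfand5 and Ubqln1 were called higher and Nfe2l1 and Ubqln2 lower, beside 6.93% and 51.5% of all genes, and the medians were 1.75 for the 9 genes and -1.08 for all genes.

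In Cu-Cys against Ctrl, 0 of the 9 genes were called in either direction by edgeR, where 0.167% of all genes were called higher and 1.47% lower. By the adjusted p alone, with 0.05 as the threshold, 5 were higher and 1, Nfe2l1, was lower, beside 22.6% and 22.4% of all genes, and the same 5 and 1 had an unadjusted p under 0.05. Zfand2a was called with DESeq2 size factors, where its log2 change reached 1 or more.

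Cadict and Cu-Cys share copper and cystine. No dose was given for these libraries, so their comparison cannot tell the remaining parts of the particle from the amount of copper and cystine. Here 6 of the 9 genes were called higher (18.6% of all genes) and 0 lower (23.6% of all genes). The log2 fold changes were 4.35 ± 0.06 for Zfand2a, 4.23 ± 0.05 for Sqstm1, 3.35 ± 0.06 for Ubb, 2.73 ± 0.05 for Ubqln1, 2.30 ± 0.05 for Zfand5 and 1.51 ± 0.05 for Vcp. With library totals the change of Vcp was 0.62, which is under 2-fold and ends its call, and the other 5 were called beside 5.76% of all genes. By the adjusted p alone, 7 genes were higher and none lower at 0.05, beside 40.3% and 45.6% of all genes. The seventh was Ddi2 at 0.40 ± 0.15 (adjusted p = 0.025, edgeR), whose call was lost without Cu-Cys replicate 1 (0.35), Cu-Cys replicate 2 (0.38), Cadict replicate 1 (0.37) or Cadict replicate 3 (0.17), and whose change was -0.49 with library totals. Nfe2l1 at -0.05 ± 0.06 and Ubqln2 at -0.08 ± 0.06 did not pass, with 95% intervals of -0.17 to 0.07 and -0.21 to 0.05. With library totals their changes lay outside these intervals, at -0.93 (adjusted p = 5.4e-10, edgeR) for Nfe2l1 and -0.97 (adjusted p = 5.9e-10, edgeR) for Ubqln2. Both values lay near the median of all genes with library totals, which was -0.98, and 47.7% of all genes were called lower there. The Cadict comparisons share their Cadict libraries, and both comparisons with Ctrl share the Ctrl libraries.

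**Figure D3:**
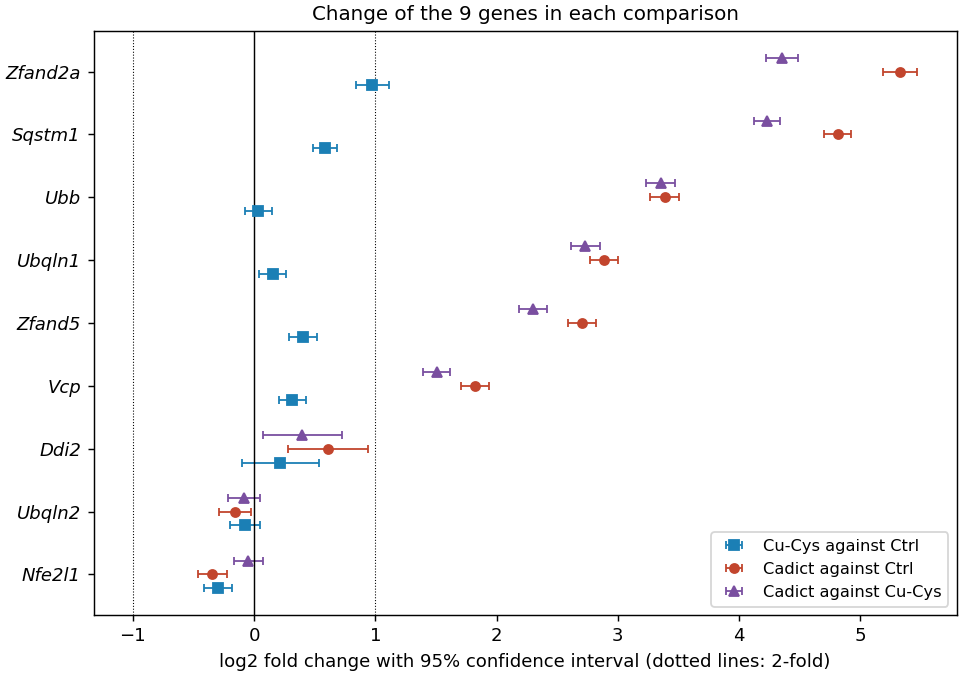
Log2 fold change (horizontal axis) of the 9 genes, in order of their Cadict change, in Cu-Cys against Ctrl (squares), Cadict against Ctrl (circles) and Cadict against Cu-Cys (triangles), with 95% confidence intervals and dotted lines at 2-fold. The 6 called genes have circles and triangles beyond the line at 2-fold, and their squares lie between 0.03 and 0.97.

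**Figure D4:**
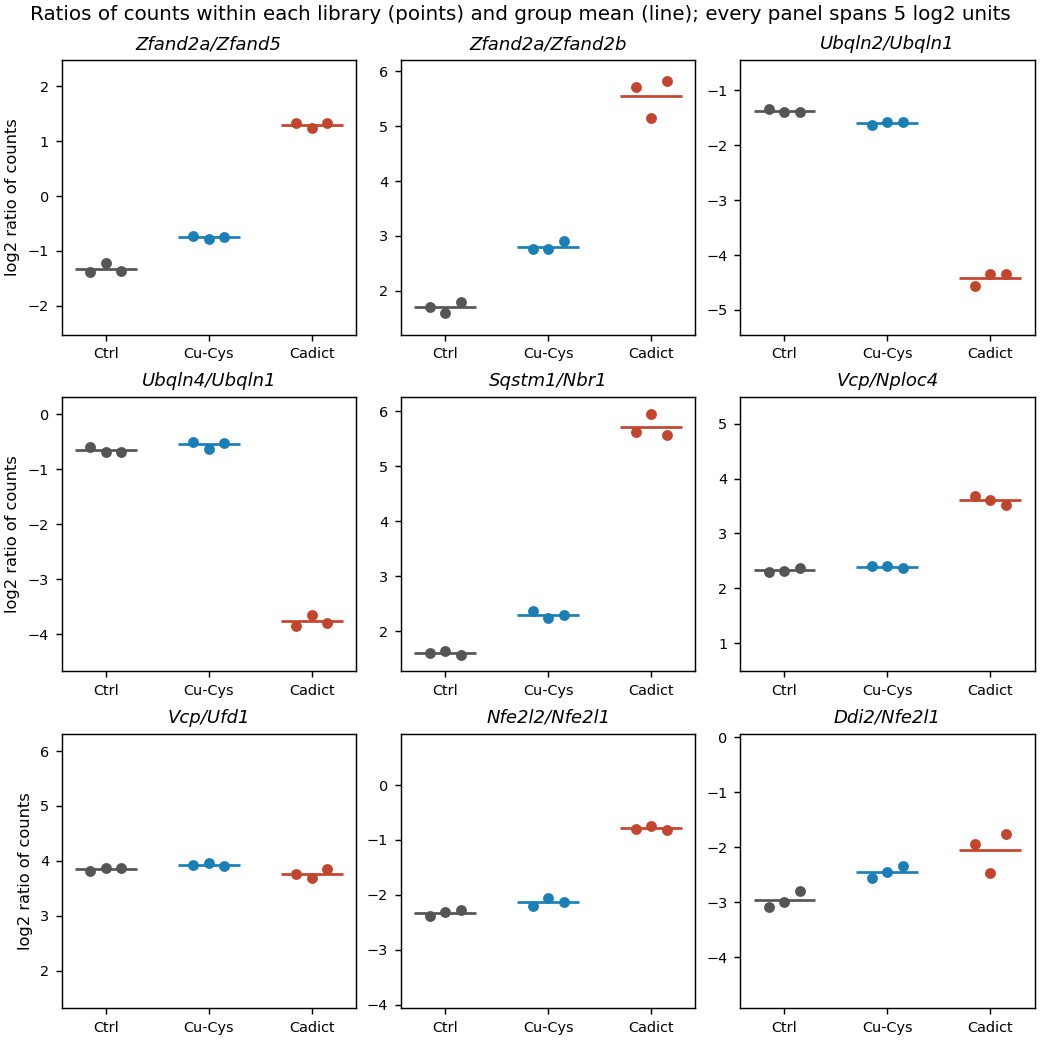
Log2 ratio of counts (vertical axis, the same span in every panel) for 9 pairs of related genes within each library (points) and the group mean (line). The Cadict points of Ubqln2/Ubqln1 lie near -4.42 where those of Ctrl lie near -1.37, and the points of Vcp/Ufd1 stay between 3.68 and 3.95 in all 9 libraries.

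The 9 ratios in that plot gave 27 tests, and no p could pass 0.05 after adjustment, since 0.1 was the smallest possible value. The smallest adjusted p reached by these permutation tests was 0.1125. Groups overlapped in 3 of the 27: Vcp/Ufd1 between Cadict and Ctrl, Ubqln4/Ubqln1 between Cu-Cys and Ctrl, and Ddi2/Nfe2l1 between Cadict and Cu-Cys. How often ratios of other gene pairs stay apart was not computed, so this count has no background beside it. By the adjusted p alone, at 0.05, 40.6% of all genes were higher and 47.1% lower in Cadict against Ctrl.

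Levels per length changed the order of the genes. In Ctrl cells the FPKM ran from Ubb at 950 ± 22 (SD) through Sqstm1 at 274 ± 5, Vcp at 263 ± 3, Nfe2l1 at 84.0 ± 2.4, Ubqln1 at 64.9 ± 0.5, Zfand5 at 28.6 ± 1.1, Ubqln2 at 27.8 ± 0.5 and Ddi2 at 13.2 ± 1.1 to Zfand2a. Only Zfand5 and Ubqln2 had overlapping ranges there. In Cadict cells Ubb led at 5151 ± 239, ahead of Sqstm1 at 3934 ± 55, Vcp at 478 ± 26, Ubqln1, Zfand2a, Zfand5 at 99.2 ± 5.1, Nfe2l1 at 36.5 ± 3.2, Ubqln2 at 12.8 ± 1.3 and Ddi2 at 10.4 ± 3.4, and the last pair overlapped. Among all 16509 genes Ubb ranked between 97 and 100 by FPKM in the Ctrl libraries and between 12 and 25 in the Cadict libraries. The 9 genes together took 0.308% ± 0.003 (SD) of counts in Ctrl, 0.337% ± 0.005 in Cu-Cys and 1.57% ± 0.04 in Cadict.

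The deposited counts and FPKM together imply a length for each gene, since FPKM is a count divided by a length and by the library total. From the lengths below, an offset per library was subtracted, of -12.8 to 11.6 bases. It is the library's median deviation from the gene means over 4744 well-expressed genes. RSEM, which the submitters' processing notes name, weights that length by the estimated abundance of a gene's isoforms. The implied length of Nfe2l1 was 3935, 3937 and 3987 bases in Ctrl and 3722, 3632 and 3719 in Cadict libraries, a change of -6.64% of the Ctrl mean. All Cadict values were below all Ctrl values, and 3.75% of 4744 well-expressed genes changed by as much in that direction. Zfand5 went from 2589 ± 9 (SD) to 2502 ± 10 bases, a change of -3.35% that 8.01% of those genes reached. Ubb changed by -1.57%, and the other 6 genes by at most 0.0975%, where 24.4% of genes moved by more than 1% in either direction. GENCODE M21 lists 12 transcripts of 354 to 4654 bases for Nfe2l1 (chr11:96817414-96829968, minus strand) and 5 of 465 to 7385 bases for Zfand5 (chr19:21272278-21286840, plus strand).

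**Figure D5:**
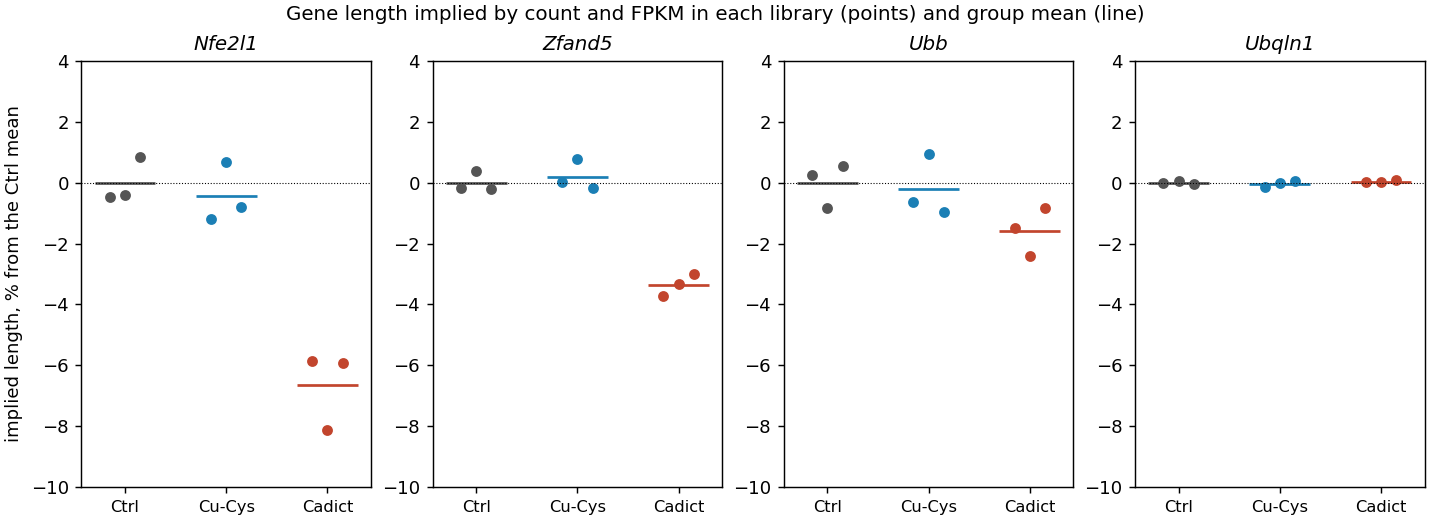
Gene length implied by count and FPKM, as percent from the Ctrl mean (vertical axis, the same in all panels), for Nfe2l1, Zfand5, Ubb and, as a gene without a shift, Ubqln1, in each library (points) with the group mean (line). Lengths are shown after the offset of each library was subtracted. The Cadict points of Nfe2l1 average -6.64% and those of Zfand5 -3.35%.

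Heat shock factor 1, CNC factors such as Nfe2l1 and Nfe2l2, and the metal-sensing factor Mtf1 bind known DNA motifs, and the windows around the starts of these genes were searched for their letters on both strands. RefSeq windows (GRCm38.p6) of 250 bases before to 50 bases after a start were at hand for 8 of the 9 genes, in 13 windows, and Ubqln2 had none. A pair of heat shock units (GAANNTTC or TTCNNGAA) occurred in windows of 2 of the 8 genes, Zfand2a and Vcp, and in 15.1% of 32851 windows of all genes. A triplet, GAANNTTC with a further GAA after any 2 bases, occurred in 0 of the 8 genes and in 0.603% of all windows. CNC or antioxidant response letters (TGACNNNGC or TGAGNNNGC) occurred in 6 of the 8 genes and in 27.8% of all windows, and metal response letters (TGCACNC or TGCGCNC) in 3 of the 8 genes and in 25.7% of all windows. A gene with several windows has more chances of a match, and Nfe2l1 and Ubb have several. The stretches below are shown for the called genes with a match to heat shock or CNC letters, 5′ to 3′ on the gene's strand, with the match in capitals.
Zfand2a, heat shock pair: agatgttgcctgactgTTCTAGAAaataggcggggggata
Zfand2a, CNC letters: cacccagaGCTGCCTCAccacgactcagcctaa
Vcp, heat shock pair: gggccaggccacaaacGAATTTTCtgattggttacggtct
Vcp, CNC letters: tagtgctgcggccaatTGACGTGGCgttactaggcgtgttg
Ubb, CNC letters: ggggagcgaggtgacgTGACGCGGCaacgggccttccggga
Ubqln1, CNC letters: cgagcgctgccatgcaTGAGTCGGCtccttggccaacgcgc
Zfand5, CNC letters: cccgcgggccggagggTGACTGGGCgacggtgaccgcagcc
Zfand5, CNC letters: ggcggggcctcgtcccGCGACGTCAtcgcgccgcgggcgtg
The Zfand2a stretches lie at chr5:139484664-139484703 and chr5:139484709-139484741, with matches that begin 196 and 242 bases before the start. Those of Vcp lie at chr4:43000544-43000583 and chr4:43000597-43000637 (60 and 114 bases before). That of Ubqln1 lies at chr13:58215715-58215755 (86 bases before). Those of Zfand5 lie at chr19:21272067-21272107 and chr19:21272167-21272207 (195 and 95 bases before). The Ubb stretch, at chr11:62551686-62551726, lies inside the annotated gene, with its match 29 bases before a later start. The window at the first start of Ubb, chr11:62550921-62551220, held metal response letters and no heat shock or CNC letters. Sqstm1, the gene with the second largest change, held none of these letters in its window. A match is a description of sequence and says nothing of binding in these cells.

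The wider groups around the 9 genes were described from the same fit, as lists chosen with earlier results of these data known. Of all genes tested in Cadict against Ctrl, 20.7% were called higher and 27.1% lower, or 6.93% and 51.5% with library totals. All 22 heat shock factor 1 targets tested were called higher in Cadict against Ctrl, with a median log2 fold change of 2.96, and 21 of them with library totals. Among them were the chaperone regulators Dnajb1 at 4.60 ± 0.06 and Bag3 at 4.18 ± 0.06, and the smallest change was that of the Hsp90 partner Fkbp4 at 1.82 log2 units (0.86 with library totals). The inducible Hsp70 genes Hspa1a and Hspa1b are near-identical copies, and the split between them is uncertain. Hspa1b went from 18.7 to 20.9 TMM CPM in Ctrl to between 22420 and 27640 in Cadict, and Hspa1a from at most 0.0436 to between 1166 and 1455. With Cu-Cys, 0 of the 22 were called against Ctrl by edgeR, and 19 were higher at an adjusted p of at most 0.05. Of all genes, 0.167% were called higher and 1.47% lower with Cu-Cys, and 22.6% were higher and 22.4% lower by that adjusted p.

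Of 41 proteasome subunits and assembly factors, 33 were called higher and 0 lower in Cadict against Ctrl, beside 20.7% and 27.1% of all genes. The median log2 fold change of the 41 was 1.80. With library totals the count was 11 higher and 1 lower, beside 6.93% and 51.5% of all genes, and the median 0.84. The largest rise was that of Adrm1, a ubiquitin receptor of the proteasome, at 3.08 log2 units, and the largest fall that of the assembly chaperone Psmg2 at -0.27. With Cu-Cys, 0 of the 41 were called against Ctrl, and the adjusted p reached 0.05 for 34 that were higher and 0 that were lower. By that adjusted p, 22.6% of all genes were higher and 22.4% lower. Nfe2l1, whose product acts on these genes, was lower in both comparisons, at -0.34 with Cadict and -0.30 with Cu-Cys. The medians of all genes were -0.13 and 0.0067. Any link between the level of Nfe2l1 and these genes was not tested.

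Smaller groups moved in both directions in Cadict against Ctrl. Of 6 genes of the Bag6 pathway, which sorts stray membrane proteins, 2 were called higher and 0 lower (0 and 1 with library totals), with Get3 at 1.61 and Rnf126 at -0.63 as the extremes on the log2 scale. Of 8 genes of ubiquitin activation and recycling, 4 were called higher and 1 lower (0 and 3 with library totals), from Uchl5 at 1.52 to Uba6 at -1.14. Of 16 ubiquitin ligases of protein quality control, 3 were called higher and 2 lower (0 and 6 with library totals), from Ubr4 at 1.82 to Ube3c at -2.05. Beside the 20.7% of all genes called higher and 27.1% called lower, the counts for the ligases are near or below the background, and with library totals the shares of all genes were 6.93% and 51.5%. With Cu-Cys, 0 genes of these 3 groups were called, and the numbers higher and lower with an adjusted p up to 0.05 were 4 and 0, 4 and 0, and 1 and 2. Of all genes, 22.6% were higher and 22.4% lower by that adjusted p.

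The genes whose levels followed those of the leading members most closely over the 9 libraries were found by Euclidean distance in centred log2 TMM CPM. For Sqstm1 they were the chaperone Hsph1 (distance 0.139), Maff (0.315) and Dnaja4 (0.338). For Ubb they were Saraf (0.19), Ypel5 (0.232) and Fhl2 (0.29), and for Zfand2a Gm10382 (0.494), Csrnp1 (0.527) and Dnaja4 (0.65). Genes chosen by this distance have changes like those of the member by construction. Hsph1 had log2 fold changes of 4.76 in Cadict and 0.55 in Cu-Cys against Ctrl, and Saraf had 3.45 and 0.02.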

How the data were processed

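Sequencing was of oligo(dT)-selected RNA from 9 libraries of MC38 cells in 3 groups. The paper names TRIzol and an Illumina instrument, and the labels name a column kit and DNA nanoballs. The submitters' processing notes list HISAT2 2.1.0, Bowtie2 2.3.4.3 and RSEM 1.3.1 and the builds GRCh38.p13 and GRCm39, without roles. The authors deposited 1 table with, per gene and library, an expected count, an FPKM value, a TPM value and a signal, which is the count divided by a size factor per library. Columns of group averages were not used. Columns named CC were read as Cu-Cys, and those named CCGE as Cadict from its components, an inference.

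The expected counts were rounded and fitted in R 4.3.3 with edgeR 4.0.16 (TMM, filterByExpr by group, 1 quasi-likelihood fit of all 9 libraries, prior count 0.125). P-values were adjusted by Benjamini-Hochberg over 11949 genes and called at the study's thresholds, a fold of 2 and an adjusted p of 0.001. Fold changes are log2, and SE is the estimate divided by the square root of F. The 9 genes and the lists were chosen with earlier results of these data known, and the counts of lists come from that fit. Beside the 9 genes, partners were named for structure, with the largest rise and fall of each list at a mean of at least 10 TMM CPM and the 3 nearest patterns of the 3 most changed genes. Some planned partners are not reported here. Ratios used an exact two-sided permutation test. Implied lengths used genes with at least 300 counts and an FPKM of 5. Alternatives were DESeq2 1.42.0 size factors and its Wald test, library totals, other filters, fits of 2 groups, limma 3.58.1 on the deposited FPKM, TPM and size-factor signal, a replicate block and leaving out each library. Replicates of one number did not deviate together between groups (correlations of -0.20 to 0.15 over 8551 genes), so they were not paired. Every pair of libraries differed in at least 13947 of 16509 genes. Depth allows 3 counts, 0.164 to 0.168 CPM, where a count is 0, and covers counting error only. The fit was tested on simulated data with few changed genes, as many raised as lowered. Such data cannot test the scaling of the Cadict libraries. Motif letters are textbook consensus forms. Positions come from GENCODE M21 and RefSeq on GRCm38, a build other than the listed GRCm39, and the table holds no coordinates.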

Additional observations from a re-analysis of the deposited data

How the results depend on the processing

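The 6 calls in Cadict against Ctrl and in Cadict against Cu-Cys held in number under the normalizations by DESeq2, both filters, DESeq2's Wald test, the fit of 2 groups and the size-factor counts. In Cadict against Ctrl 5 were called higher and 2 lower with library totals, FPKM and TPM, and in Cadict against Cu-Cys 5 higher and 0 lower with library totals and FPKM and 5 and 2 with TPM. Vcp was the gene lost with library totals in both. Without a library the number called was 6 to 6 in both and 0 to 0 in Cu-Cys against Ctrl, and the number at an adjusted p of at most 0.05 was 8 to 9, 6 to 8 and 5 to 5. In Cu-Cys against Ctrl the number called was 1 with DESeq2 size factors and 1 with size-factor counts, where Zfand2a reached 2-fold. With the replicate number as a block, 6, 0 and 6 of the 9 genes were called and 9, 6 and 7 passed an adjusted p of at most 0.05, so the block ended no call, and the numbers do not pair the libraries. The sign of Ddi2 turned in Cadict against Ctrl to -0.34 with library totals, -0.36 and -0.39 with FPKM and -0.69 with TPM, and in Cadict against Cu-Cys to -0.49, -0.49, -0.54 and -0.76. That of Ubb in Cu-Cys against Ctrl, 0.03, turned to -0.0349, -0.0379, -0.038 and -0.1103. In Cadict against Cu-Cys Nfe2l1 turned to 0.0456 with DESeq2 size factors, 0.0386 with the Wald test, 0.0146 with size-factor counts and 0.0034 without Cadict replicate 2, and Ubqln2 to 0.0098 and 0.0029 with DESeq2 size factors and the Wald test. The same changes of Nfe2l1 and Ubqln2 passed an adjusted p of 0.05 under library totals, FPKM, TPM, no filter and without Cadict replicate 3. They were -0.93 and -0.97 with library totals, where the median of all genes was -0.98, and -0.114 and -0.1572 without Cadict replicate 3. The change of Vcp in Cu-Cys against Ctrl fell to 0.17 with TPM (adjusted p = 0.12). Of the ratio differences recomputed without a library or from FPKM, 186 moved by less than the spread between libraries and 3 by more. Size-factor counts and the sum of Ddi2 and Rsc1a1 were added after the data were seen. The causes were not tested, apart from the scaling, which by construction shifts all genes together. Depth limits Nfe2l3, at 0 to 4 counts, and not the 9 genes, whose lowest count was 397.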
